A study of Mus musculus with 3 samples.

Results

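Solute carriers are membrane proteins that move ions, sugars, amino acids, metals, nucleotides, vitamins and metabolites into and out of cells and organelles, and they form the largest family of transporters encoded by the mouse genome. Members of the mitochondrial subfamily exchange nucleotides and metabolites across the inner mitochondrial membrane, while most others sit in the plasma membrane. The prostate epithelium is known as a tissue with an unusual handling of zinc and citrate, for which zinc importers (the *Slc39a* family) and zinc exporters (the *Slc30a* family) are the best known carriers.

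Carriers were taken as all rows of the expression table with a symbol made of Slc, digits, the letter a and digits, detected with at least 1 unique molecular identifier (UMI, which stands for 1 captured mRNA molecule) in at least 1% of all cells. Of 147 such rows among 9781 gene rows, 92 were detected in at least 146 of 14573 cells and are the members described here. Directly inside this limit were *Slc38a5* and *Slc17a8*, each detected in 147 cells, and directly outside it was *Slc2a12*, detected in 145 cells. RefSeq lists 337 symbols of this form in mouse, and the other 190 are not analysed here. All 92 members had a position in RefSeq (GRCm38.p6, the assembly of mm10), on 10 chromosomes, and the spans of 14 of them overlapped another protein-coding gene there, among them *Slc24a5*, *Slc24a3*, *Slc7a3*, *Slc31a1* and *Slc25a25*. Whether reads of the overlapping genes entered the counts of these carriers was not tested.

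Tissue was male urogenital sinus (UGS), the fetal structure that gives rise to prostatic buds, taken at E18.5, and prostate taken at P14 and P35, with 1 library for each, all labelled normal. The study's methods describe mice of a mixed C57BL/6 and 129S1/SvImJ background that carry the mTmG reporter and Osr1-Cre, in which Cre expression from the *Osr1* locus marks its lineage with green fluorescent protein. The study's text describes these alleles for its lineage tracing and does not state the genotype of the E18.5, P14 and P35 libraries. All cells were in 1 table, and their barcodes ended in 1, 2 or 3. The labels do not say which ending belongs to which tissue. The endings are therefore given as barcode sets 1, 2 and 3 and were not assigned to ages. The cell number of the first set equals the one that the study gives for its UGS tissue, while those of the other two sets do not equal the ones given for the prostates, and no set was assigned by its cell number. With 1 library behind each set there was no test, and all 95% intervals cover counting error only.

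Set 1 held 766 cells with a median of 19357 UMIs, set 2 held 5350 with a median of 1738, and set 3 held 8360 kept cells with a median of 1801. Barcodes were shared by 1 cell of sets 1 and 2, by 13 cells of sets 2 and 3 and by 0 cells of sets 1 and 3. Clustering without any carrier among its features gave 15 clusters, of which 13 carried the markers of 1 of 8 classes. The epithelium-like class held 151, 1434 and 2782 cells of sets 1, 2 and 3, the fibroblast-like class 349, 1658 and 2637, and the smooth muscle-like class 89, 1613 and 1953. Smaller classes were endothelium-like (38, 96 and 196 cells), glia-like (21, 188 and 237), leukocyte-like (38, 25 and 177), pericyte-like (10, 29 and 128) and neuron-like (33, 15 and 19). A class was evaluated in a set with at least 20 cells. Of the unnamed clusters, 1 was led by muscle precursor genes such as *Myod1* and 1 by genes of mitosis. Pericyte-like cells carried all 5 pericyte markers and all 7 smooth muscle markers. The labels were weaker in some places. In set 1 the summed level of the smooth muscle markers in smooth muscle-like cells was 4050.0 CPM (UMIs of a gene per 1000000 UMIs), against 24629 in set 2 and 23606 in set 3, and that of the fibroblast markers in the same cells was 5396 CPM and of the erythroid markers 5040.1 CPM. In set 2 the leukocyte-like cells had 5977 CPM of the smooth muscle markers and 3549.65 CPM of the epithelial markers, against 4940.2 CPM of the leukocyte markers. Glia-like cells had 1814, 6445 and 5444 CPM of the fibroblast markers in sets 1, 2 and 3, against 6616, 4589 and 5214 CPM of the glia markers. Pericyte-like cells of sets 2 and 3 had 7238 and 2625 CPM of the fibroblast markers and 5384.9 and 9971 CPM of the smooth muscle markers, against 2246 and 3515 CPM of the pericyte markers. Endothelium-like cells of set 2 had 3758 CPM of the smooth muscle and 4190.3 CPM of the erythroid markers, against 5353 CPM of their own, and those of set 3 had 2099.9 CPM of the epithelial markers against 4854 CPM of their own. What part this has in the carrier values of these cells was not tested.

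The promoters of 5 carriers are shown because each stands for a result below. They are 2 carriers higher in epithelium than in stroma (*Slc6a14* and *Slc45a3*) and 1 highest in smooth muscle-like cells (*Slc24a3*). The others are a zinc exporter (*Slc30a1*) and a cystine carrier (*Slc7a11*). Each promoter runs from 250 bases before to 50 bases after a start of the gene, and reads 5′ to 3′ along it. All are taken from RefSeq for GRCm38.p6. For *Slc7a11* and *Slc30a1* that start lies inside the gene's span (chr3:50364936-50499087 and chr1:191906697-191913248), not at its first base. Capitals mark, on either strand, the AP-1 element TGANTCA in *Slc6a14* (chrX:21714650-21714949, plus strand), the GC box GGGCGG in *Slc45a3* (chr1:131962665-131962964, plus strand) and in *Slc24a3* (chr2:145167525-145167824, plus strand), the metal response core TGCACNC or TGCGCNC in *Slc30a1* (chr1:191906531-191906830, plus strand), and the amino acid response core TGATGNAA in *Slc7a11* (chr3:50443564-50443863, minus strand).
Slc6a14: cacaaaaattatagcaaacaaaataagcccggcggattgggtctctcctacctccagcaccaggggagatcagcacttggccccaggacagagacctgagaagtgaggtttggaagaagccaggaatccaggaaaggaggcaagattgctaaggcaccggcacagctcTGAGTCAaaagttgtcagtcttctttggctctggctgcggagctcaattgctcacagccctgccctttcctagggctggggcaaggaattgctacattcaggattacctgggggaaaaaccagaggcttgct
Slc45a3: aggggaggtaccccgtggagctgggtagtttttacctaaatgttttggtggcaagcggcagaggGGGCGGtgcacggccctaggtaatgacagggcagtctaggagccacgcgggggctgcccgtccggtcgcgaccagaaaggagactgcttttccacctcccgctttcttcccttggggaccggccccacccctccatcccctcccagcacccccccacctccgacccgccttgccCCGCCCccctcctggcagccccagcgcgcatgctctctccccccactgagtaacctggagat
Slc24a3: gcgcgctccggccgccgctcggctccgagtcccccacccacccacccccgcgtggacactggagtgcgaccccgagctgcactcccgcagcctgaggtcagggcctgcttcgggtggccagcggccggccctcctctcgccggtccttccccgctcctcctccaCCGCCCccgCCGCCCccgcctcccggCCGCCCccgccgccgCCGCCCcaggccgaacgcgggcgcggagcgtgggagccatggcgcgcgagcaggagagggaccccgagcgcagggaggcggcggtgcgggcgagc
Slc30a1: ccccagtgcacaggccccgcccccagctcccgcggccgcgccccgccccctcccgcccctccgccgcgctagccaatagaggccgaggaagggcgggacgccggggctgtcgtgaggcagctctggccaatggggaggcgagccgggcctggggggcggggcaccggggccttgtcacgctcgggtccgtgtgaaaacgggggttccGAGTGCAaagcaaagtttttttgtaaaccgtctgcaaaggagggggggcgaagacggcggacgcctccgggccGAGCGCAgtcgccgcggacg
Slc7a11: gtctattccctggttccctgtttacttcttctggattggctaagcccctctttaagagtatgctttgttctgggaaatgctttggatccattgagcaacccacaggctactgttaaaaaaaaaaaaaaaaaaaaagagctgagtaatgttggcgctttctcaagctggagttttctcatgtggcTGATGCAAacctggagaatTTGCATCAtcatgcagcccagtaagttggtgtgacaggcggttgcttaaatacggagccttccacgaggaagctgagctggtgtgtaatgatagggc

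A promoter of this length was at hand for 73 of the 92 members and for 27025 genes in all. The 27025 genes were not chosen by detection, while every member was detected in at least 1% of cells. The shares below therefore compare unlike sets, and what part detection has in them was not tested. GC boxes were found in 52 of the 73 (71.2%), against 35.9% of all promoters, and the metal response core in 31 (42.5%) against 25.6%. Among the 7 zinc carriers with a GC box were *Slc30a1* with 5 matches and *Slc30a4* with 3, and these 2 also held 2 and 3 metal response cores. The amino acid response core was found in 2 members, *Slc7a11* with 2 matches and *Slc50a1* with 1, and in 4.06% of all promoters. The AP-1 element was in 6 members (8.22%) and in 7.93% of all promoters. The other motifs searched were the E-box CACGTG, in 17.8% of members and 7.24% of all promoters, and the TATA box TATAAA, in 5.48% and 14.2%. A match is a stretch of letters only, and the GC box and metal response matches were read on both strands and may overlap.

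Carriers of the mitochondrial membrane dominated among the 92 members. Summed over the 92 members, the level was 3771, 4064 and 3824 CPM in sets 1, 2 and 3, and *Slc25a3*, *Slc25a4* and *Slc25a5* together made up 52.5%, 51.0% and 52.2% of it. *Slc25a3*, which brings phosphate into mitochondria, stood at 871, 1047 and 1077 CPM over all kept cells. *Slc25a5*, the adenine nucleotide translocator of dividing cells, stood at 498, 644 and 613 CPM. In contrast to these, *Slc25a4*, the adenine nucleotide translocator of muscle and nerve, at 611, 383 and 308 CPM over all kept cells, differed widely between classes. It reached 837, 781 and 795 CPM in smooth muscle-like cells and 281, 210 and 164 CPM in epithelium-like cells. In neuron-like cells it was 1441, 1550 and 1775 CPM, the last 2 from 15 and 19 cells.

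Next in abundance, by the mean of the 3 sets, were plasma membrane carriers of nutrients and metals. *Slc2a1*, the widespread glucose carrier, had 241, 157 and 160 CPM, and *Slc7a1*, the main carrier of cationic amino acids, 51.4, 226 and 194 CPM. *Slc39a1* (zinc) had 99.8, 82.3 and 118 CPM, *Slc1a5* (glutamine) 45.1, 82.8 and 93.4 CPM, *Slc6a6* (taurine) 74.7, 66.2 and 49.6 CPM, *Slc31a1* (copper) 68.1, 46.6 and 48.4 CPM, and *Slc7a11* (cystine in exchange for glutamate) 19.6, 84.9 and 52.9 CPM. By that mean the other members were sparser, down to *Slc41a3*, a magnesium carrier, at 4.34, 1.26 and 2.48 CPM. Within a single set the order differed, with *Slc24a5* at 54.6 CPM in set 1 above *Slc1a5* and *Slc16a9* there at 0.975 CPM below *Slc41a3*.

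**Figure D1:**
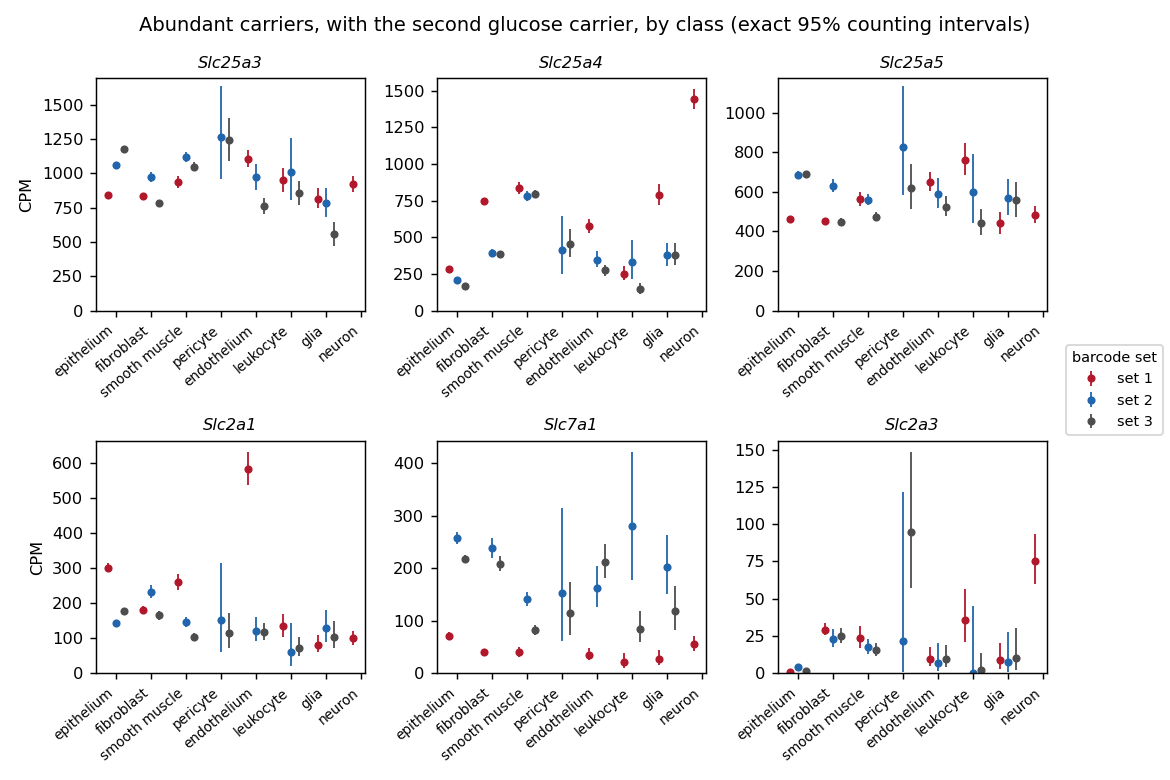
Level (CPM, linear axis from 0) of 5 abundant carriers and of *Slc2a3* by class, with points for barcode sets 1, 2 and 3 and bars for exact 95% counting intervals; classes with under 20 cells in a set have no point. *Slc25a4* is low in epithelium (281, 210 and 164 CPM) and highest in set 1 neurons (1441 CPM), *Slc7a1* of set 1 lies under that of the other sets in the 3 largest classes, and *Slc2a3* is low in epithelium (0.958, 4.11 and 1.18 CPM).

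The epithelium was compared with its stroma, taken as fibroblast-like and smooth muscle-like cells together; this comparison was chosen after the data were seen. A carrier was counted as higher on one side with a ratio of at least 2, an interval of the ratio off 1 and at least 10 UMIs. In every set 8 members were higher in epithelium-like cells and 15 were higher in stromal cells. The same held for 7.43% and 12.8% of the 6487 gene rows with equal detection, so both shares (8 and 15 of 92) were close to the background. By set, 15, 13 and 21 members were higher in epithelium (background 14.2%, 13.8% and 19.3%) and 24, 22 and 21 in stroma (22%, 19.5% and 20.8%). No member was higher in epithelium in one set and in stroma in another, and the median log2 ratio of epithelium over stroma was -0.24, -0.11 and -0.029 for the members and -0.15, -0.045 and 0.11 for all rows. Set 1 depended on integration of the sets: without it 482 of its 766 cells were in an unnamed cluster and only 3 were fibroblast-like and 4 smooth muscle-like. With every cell thinned to 900 UMIs, 0 and 1 members passed in every set, and with cells of at least 500 genes alone 4 passed for epithelium.

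On the epithelial side, the carrier with the widest gap in sets 1 and 3 among those with stromal UMIs was *Slc44a3*, a choline carrier-like protein. It had 13.5, 7.13 and 17.2 CPM in epithelium and 0.580, 0.356 and 0.407 CPM in stroma, with a log2 ratio of 4.55 (95% interval 3.28 to 6.20) in set 1, 3.74 (2.12 to 6.06) in set 2 and 5.40 (3.84 to 7.69) in set 3, for which stromal sums under 3 UMIs were set to 3. In set 3, 8.84% of epithelium-like cells (median 3548.5 UMIs) had an *Slc44a3* UMI, against 0.0758% of fibroblast-like cells (median 1329) and 0.0512% of smooth muscle-like cells (median 1606). With every cell thinned to 900 UMIs these shares were 1.38%, 0.0886% and 0.0539%.

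*Slc6a14*, which takes up neutral and cationic amino acids, had 93, 93 and 51 UMIs in epithelium-like cells and 0, 2 and 0 in stromal cells. Its epithelial level was 12.7, 11.2 and 2.998 CPM. *Slc45a3*, whose product prostein is known as a protein of prostate epithelium, had 6.57, 16.6 and 14.8 CPM against 0.464, 1.96 and 1.09 CPM in stroma. *Slc40a1*, or ferroportin, the exporter of cellular iron, had 51.2, 22.8 and 17.05 CPM against 5.22, 2.49 and 2.85 CPM, with a log2 ratio of 3.29 (2.85 to 3.77) in set 1, 3.196 (2.41 to 4.09) in set 2 and 2.58 (1.94 to 3.29) in set 3. All 4 were thus low in the stroma of each set. Among all evaluated classes, however, *Slc6a14* was highest in pericyte-like cells of set 2 and in glia-like cells of set 3. *Slc45a3* was highest in endothelium-like cells of set 3, and *Slc40a1* in leukocyte-like cells of set 2.

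Also on the epithelial side in every set were *Slc25a24*, *Slc4a11* and *Slc22a18*. *Slc25a24*, the mitochondrial exchanger of ATP-magnesium for phosphate, was the most abundant of the 8 with 57.2, 94.6 and 84.7 CPM against 19.5, 25.1 and 14.8 CPM. *Slc4a11* of the bicarbonate carrier family had 1.78, 21.99 and 9.11 CPM against 0.464, 1.60 and 1.09 CPM, and the imprinted *Slc22a18* 17.5, 2.17 and 4.70 CPM against 1.74, 0.356 and 0.950 CPM. All of them were higher in epithelium in sets 1, 2 and 3.

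On the stromal side, carriers with low levels in epithelium included *Slc38a5* (a glutamine carrier), *Slc43a1* (large neutral amino acids) and *Slc2a3* (the high-affinity glucose carrier of neurons). *Slc38a5* had 0, 5 and 0 UMIs in epithelium and 37, 69 and 40 in stroma. *Slc43a1* had 15.8, 19.9 and 24.4 CPM in stroma and 0.958, 1.57 and 0.470 CPM in epithelium, with a log2 ratio of -4.04 (-5.38 to -2.96) in set 1, -3.67 (-4.62 to -2.83) in set 2 and -5.70 (-6.93 to -4.69) in set 3. *Slc2a3* had 28.1, 19.9 and 20.4 CPM in stroma and 0.958, 4.11 and 1.18 CPM in epithelium, where set 2 was thus the highest. The other glucose carriers did not pass the 2-fold limit in any set. *Slc2a1* had 301, 144 and 176 CPM in epithelium against 198, 185 and 136 CPM in stroma. *Slc2a8*, an intracellular sugar carrier, had 4.65, 2.78 and 2.998 CPM against 7.19, 3.92 and 4.75 CPM, so it was lower in epithelium in each set.

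*Slc43a3* (purine bases) had 23.4, 17.3 and 21.0 CPM against 1.78, 3.504 and 1.41 CPM, and *Slc7a2* (cationic amino acids) 14.3, 6.23 and 2.31 CPM against 1.09, 0.604 and 0.647 CPM. *Slc16a10*, a carrier of aromatic amino acids, had 30.7, 40.9 and 35.4 CPM against 4.24, 10.6 and 15.05 CPM. *Slc41a1*, which exports magnesium, had 26.3, 43.3 and 68.8 CPM against 11.6, 19.6 and 26.2 CPM. *Slc41a3*, *Slc6a17*, *Slc25a22*, *Slc25a4*, *Slc24a3*, *Slc4a3* and *Slc12a4* were also higher in stroma in every set. In set 2 *Slc41a3* rested on 12 stromal and 3 epithelial UMIs, and its direction turned (log2 ratio 0.67) with every cell thinned to 900 UMIs. *Slc12a4*, a potassium and chloride cotransporter, had 28.98, 37.9 and 23.8 CPM in stroma against 6.29, 12.9 and 5.35 CPM in epithelium. Of the stromal carriers only *Slc43a3* was led by fibroblast-like cells by at least 2 times over smooth muscle-like cells in every set when the 3 largest classes were compared (1.66% of all rows), and 0 members were so led by smooth muscle-like cells (0.771%).

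Carriers were also counted by group, with groups set by family number. Of 10 members of the amino acid families, which include *Slc43a3*, 4 were higher in stroma and 0 in epithelium in every set, though 2 were higher in epithelium in set 1. That count leaves out *Slc6a14*, whose family was listed with the 11 amine and organic ion carriers (2 higher in epithelium and 1 in stroma in every set). Of 5 members of the monocarboxylate family, which includes *Slc16a10*, 2 were higher in stroma and 0 in epithelium in every set, and *Slc16a7* was higher in epithelium in sets 1 and 3 (log2 ratio 2.03 and 1.42). Of 6 lipid, choline and acetyl-CoA carriers *Slc44a3* alone was higher in epithelium in every set, with 3, 3 and 5 of them so in sets 1, 2 and 3 and 0 higher in stroma. *Slc27a3* of this group had log2 ratios of -0.98 and -0.46 in sets 1 and 3. These counts stand beside the backgrounds above and were not tested. The 17 mitochondrial carriers were divided, with 1 higher in epithelium and 2 in stroma in every set.

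**Figure D2:**
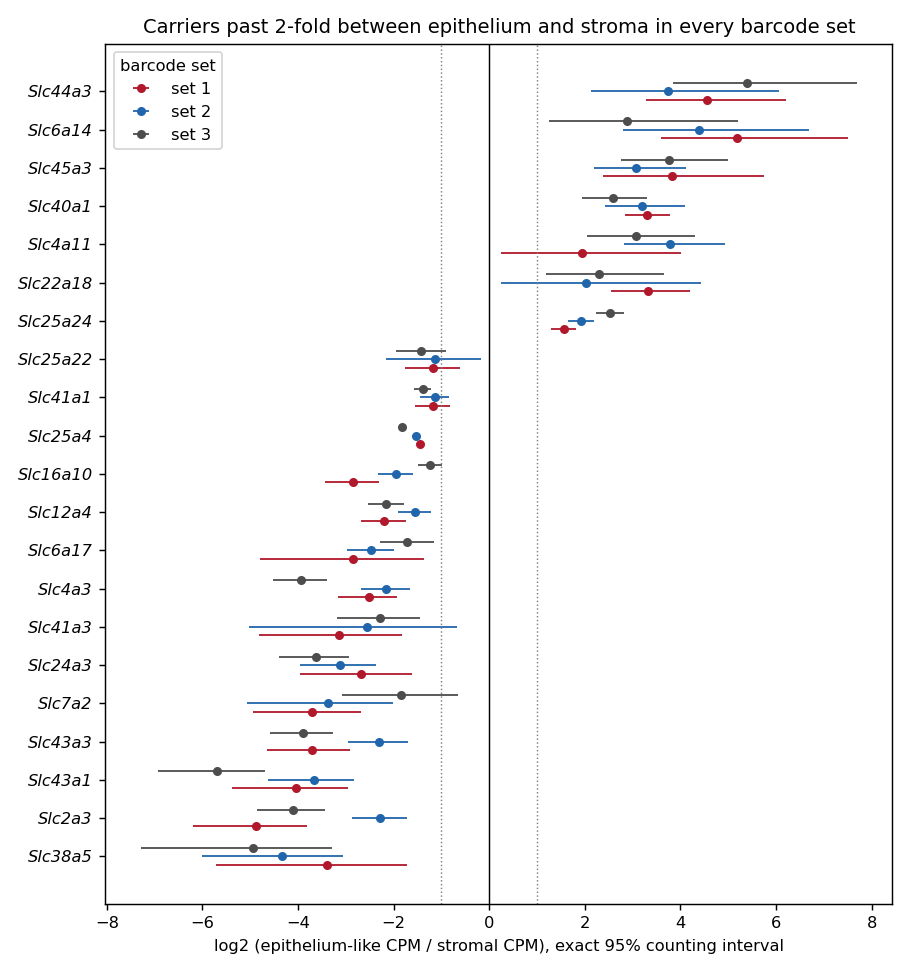
Log2 ratio of the level (CPM) in epithelium-like over stromal cells for 21 carriers past 2-fold in the same direction in every barcode set, with exact 95% counting intervals; dotted lines mark 2-fold. The 7 epithelial carriers drawn lie to the right of 0 and the 14 stromal carriers to the left in all sets, *Slc44a3* at 4.55, 3.74 and 5.40 and *Slc43a1* at -4.04, -3.67 and -5.70.

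Within the epithelium, 2 clusters were basal-like, 1 luminal-like and 1 urothelium-like (led by *Wfdc15b*, with the leukocyte marker *Cd52* among its 10 leading genes). These names were not borne out by every marker sum. The luminal markers summed to 3352, 2748 and 3143 CPM in luminal-like cells of sets 1, 2 and 3 and to 2155, 4388 and 3680 CPM in urothelium-like cells, so that urothelium-like cells had more of them in sets 2 and 3. The urothelium markers were highest in urothelium-like cells in each set (9341, 2112 and 1924 CPM), but luminal-like cells of set 1 held 5129.6 CPM of them, more than of the luminal markers. *Slc40a1* was the only member to mark the same type in every set, at 2 times the next highest type (0.123% of all rows did so for luminal-like, 0.555% for basal-like and 0.216% for urothelium-like cells). Ferroportin stood at 71.2 CPM (63.1 to 80.0), 48.1 CPM (41.2 to 56.0) and 28.6 CPM (25.2 to 32.3) in luminal-like cells of sets 1, 2 and 3. In basal-like cells it had 34.1, 4.24 and 3.76 CPM and in urothelium-like cells 21.3, 3.49 and 4.61 CPM. Luminal-like cells were thus highest in each set, and the intervals did not overlap those of the other types.

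Numbers of members marking a type were 4, 2 and 4 for basal-like cells (background 3.47%, 2.64% and 4.99%), 3, 4 and 7 for luminal-like cells (2.11%, 1.79% and 2.54%) and 1, 0 and 4 for urothelium-like cells (3.16%, 2.81% and 3.14%). *Slc39a8*, which imports zinc and manganese, was low in basal-like cells in all sets at 5.39, 3.79 and 6.02 CPM. Its level was 14.9, 65.8 and 86.1 CPM in luminal-like cells and 7.70, 97.7 and 66.1 CPM in urothelium-like cells. *Slc6a14* marked luminal-like cells in sets 1 and 2, with 23.3 CPM (18.8 to 28.6) and 20.2 CPM (15.8 to 25.5), and urothelium-like cells in set 3, with 19.2 CPM (12.4 to 28.4) beside 2.54 CPM in luminal-like cells. The type with the most *Slc6a14* was therefore not the same in all sets.

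*Slc45a3* was highest in luminal-like cells in each set, at 9.12, 27.9 and 21.0 CPM, and passed the 2-fold limit in set 3. *Slc44a3* marked urothelium-like cells in set 1 with 29.03 CPM and luminal-like cells in set 3 with 27.5 CPM. Basal-like cells were marked by *Slc2a1* in set 1, with 519 CPM (485 to 555) against 250 CPM in luminal-like cells, and had the highest level in set 3 as well, 298 CPM (285 to 311) against 168 CPM in urothelium-like cells. In set 2 the highest *Slc2a1* value was the 220 CPM (169 to 281) of urothelium-like cells. *Slc4a11* was highest in basal-like cells in all sets at 2.99, 27.7 and 13.7 CPM. Carriers chosen after their values were seen were *Slc31a2* (copper) and *Slc41a2* (magnesium), which marked urothelium-like cells of set 3 with 46.1 and 33.8 CPM against 7.72 and 2.76 CPM in luminal-like cells. In urothelium-like cells of sets 2 and 3 the summed leukocyte markers reached 2758 and 1933 CPM, and what part they have in these values was not tested.

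**Figure D3:**
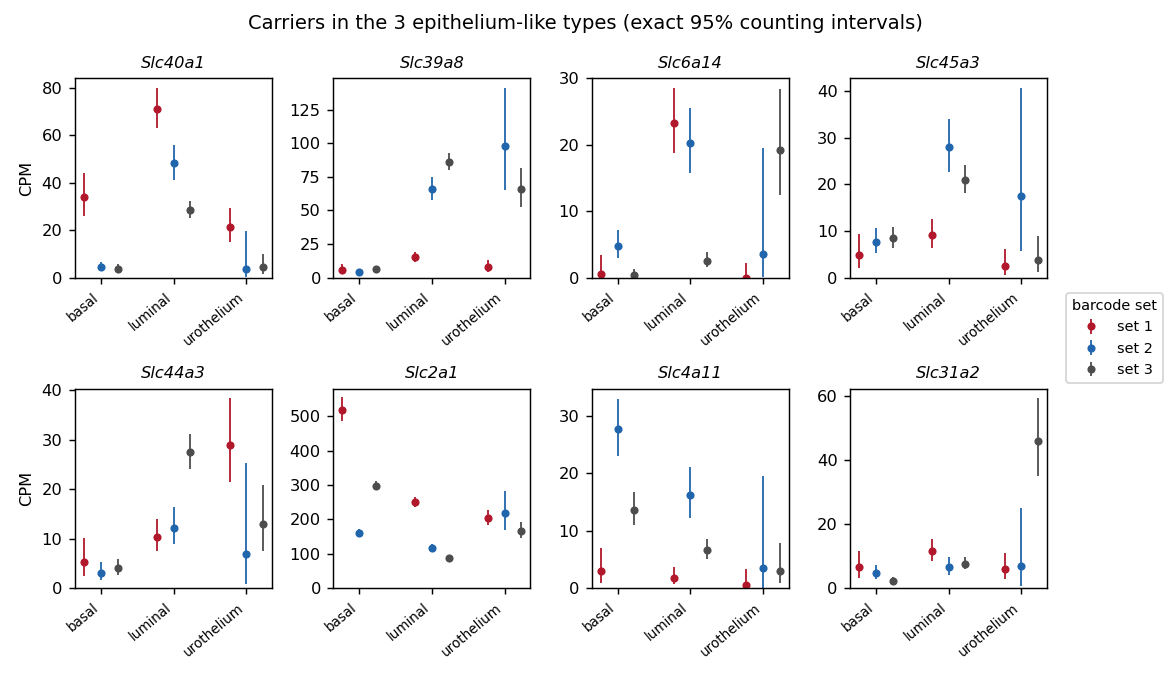
Level (CPM, linear axis from 0) of 8 carriers in basal-like, luminal-like and urothelium-like cells of barcode sets 1, 2 and 3, with exact 95% counting intervals. *Slc40a1* is highest in luminal-like cells of every set (71.2, 48.1 and 28.6 CPM), *Slc39a8* is low in basal-like cells, and *Slc31a2* is high in urothelium-like cells of set 3 alone (46.1 CPM).

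The rule for marking a class among all 8 was strict, asking for 2 times the next highest class. By it 13, 4 and 12 members marked a class in sets 1, 2 and 3, against 17.8%, 6.8% and 13.1% of all rows. In set 1 these were 5 for epithelium-like cells (4.29% of all rows), 3 for leukocyte-like cells (3.33%), 2 for glia-like cells (1.53%), 2 for neuron-like cells (3.87%), 1 for smooth muscle-like cells (0.817%) and 0 for fibroblast-like (1.53%) and endothelium-like cells (2.47%). Set 2 had 2 for glia-like cells (1.45%), 1 for fibroblast-like cells (0.956%), 1 for smooth muscle-like cells (0.678%) and 0 for epithelium-like (1.5%), pericyte-like (0.37%), endothelium-like (1.4%) and leukocyte-like cells (0.447%). Set 3 had 4 for endothelium-like cells (2.36%), 4 for pericyte-like cells (1.68%), 1 each for epithelium-like (2.65%), fibroblast-like (1.59%), leukocyte-like (1.94%) and glia-like cells (1.85%), and 0 for smooth muscle-like cells (1%). In any set 25 members marked a class, and 67 marked none. For scale, 1 UMI stood for 21.8 CPM in pericyte-like and 12.2 CPM in leukocyte-like cells of set 2. The 2 members that marked their class in every set evaluated (6.09% of all rows) were *Slc7a3* and *Slc2a3*, both in neuron-like cells, evaluated in set 1 alone (3.87%). No member did so for epithelium-like (0.509%), fibroblast-like (0.185%), smooth muscle-like (0.0771%), pericyte-like (0.17%), endothelium-like (0.586%), leukocyte-like (0.339%) or glia-like cells (0.355%). Compared instead with all other kept cells of the set, 50, 30 and 40 members marked their leading class (46%, 27.5% and 40.1%), and 19 did so in every set evaluated (20.5%).

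Epithelium-like cells of set 1 were marked by *Slc25a24*, *Slc30a4*, *Slc27a4* (fatty acids), *Slc22a18* and *Slc6a14*, and those of set 3 by *Slc25a24*. *Slc27a4* had 43.2 CPM there in set 1 against 16.1 CPM in neuron-like cells, and 9.67 and 8.46 CPM in the epithelium of sets 2 and 3. Against all other cells *Slc25a24*, *Slc4a11*, *Slc44a3* and *Slc22a18* marked epithelium-like cells in every set (3.27% of all rows did so).

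Neuron-like cells of set 1 carried *Slc7a3*, a cationic amino acid carrier of the nervous system, at 26.9 CPM (18.2 to 38.4) against 3.09 CPM in the next class, and *Slc2a3* at 75.3 CPM (60.1 to 93.3) against 35.4 CPM in leukocyte-like cells. Both were also higher there than in any other class in sets 2 and 3, *Slc7a3* with 109 and 68.4 CPM from 11 and 16 UMIs and *Slc2a3* with 149 and 180 CPM from 15 and 42 UMIs. Against all other cells *Slc31a1*, *Slc30a9* (zinc), *Slc24a5*, *Slc25a12*, *Slc25a22*, *Slc39a3* and the abundant *Slc25a4* also marked neuron-like cells. In all 10 members did so (10.5% of all rows).

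Glia-like cells had the highest level of *Slc43a3* in each set, 91.9 CPM (68.8 to 120), 72.1 CPM (43.4 to 113) and 73.3 CPM (45.4 to 112). Endothelium-like cells followed with 49.4, 44.4 and 60.7 CPM, less than 2 times lower. Against all other cells *Slc43a3* marked glia-like cells in every set (1.11% of all rows did so). *Slc44a1*, the main choline carrier, marked glia-like cells in sets 2 and 3 with 118 and 119 CPM against 36.8 and 42.9 CPM in epithelium-like cells. In set 1 the levels were 48.6 and 50.1 CPM. Set 2 added *Slc25a51*, which brings NAD into mitochondria (114 CPM), and set 1 added *Slc4a4* (sodium and bicarbonate) and *Slc27a1* (fatty acids) with 29.5 and 34.7 CPM. In sets 2 and 3 the fibroblast markers summed to more than the glia markers in these cells, as given above, and their part in these values was not tested.

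Endothelium-like cells led for *Slc20a1* (phosphate) and *Slc23a2* (ascorbate) against all other cells in every set (1.8% of all rows did so). *Slc20a1* had 113, 208 and 104 CPM against 40.1, 69.0 and 34.7 CPM, and *Slc23a2* 16.1, 39.7 and 51.0 CPM against 5.24, 15.4 and 14.2 CPM. In set 3 *Slc23a2*, *Slc39a10*, *Slc30a1* and *Slc22a15* passed the strict rule, in the cells with the epithelial marker level given above, whose part in these values was not tested. *Slc2a1* reached 584 CPM (615 UMIs) in endothelium-like cells of set 1 and 121 and 118 CPM in those of sets 2 and 3.

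*Slc6a6* was highest in leukocyte-like cells in every set at 198, 159 and 174 CPM, and the strict rule was passed in set 3, with a log2 ratio of 1.64 (1.09 to 2.21) over endothelium. Against all other cells it marked leukocyte-like cells in every set (0.647% of all rows). *Slc7a11* was highest there as well with 89.7, 134 and 172 CPM, from 43, 11 and 71 UMIs, and passed the strict rule in set 1. The values of set 2 came from the cells with the high smooth muscle and epithelial marker levels given above. In sets 2 and 3 the *Slc7a11* level was less than 2 times that of fibroblast-like cells, which is given below. In set 1 *Slc29a3* and *Slc38a7*, lysosomal carriers of nucleosides and of glutamine, marked these cells with 37.5 and 27.1 CPM.

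Smooth muscle-like cells led for *Slc24a3*, an exchanger of sodium, calcium and potassium, in every set, with 8.73, 27.4 and 27.2 CPM against 3.21, 3.81 and 1.81 CPM in all other cells (0.817% of all rows did so). *Slc4a3*, a chloride and bicarbonate exchanger of excitable tissue, had 32.6 and 46.8 CPM in sets 2 and 3 against 14.1 and 10.3 CPM in fibroblast-like cells, but 20.7 CPM against 21.3 CPM in set 1. *Slc16a10* marked smooth muscle-like cells of set 1 with 66.0 CPM and was highest in fibroblast-like cells of the other sets, with 51.8 and 43.2 CPM. The border between these classes in set 1 moved with the clustering. At resolution 1.0 the smooth muscle-like class of set 1 held 256 cells in place of 89 and the fibroblast-like class 187 in place of 349. *Slc16a10* then had 32.2 CPM in smooth muscle-like and 28.2 CPM in fibroblast-like cells and no longer marked a class. *Slc4a3* had 28.3 CPM in smooth muscle-like and 12.6 CPM in fibroblast-like cells of set 1 at that resolution. Fibroblast-like cells had *Slc38a5* alone by the strict rule, in sets 2 and 3, with 17.7 and 8.95 CPM against 7.82 and 1.68 CPM in smooth muscle-like cells.

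Pericyte-like cells, evaluated in sets 2 and 3, were marked in set 3 by *Slc6a17*, a vesicular amino acid carrier, with 95.01 CPM against 12.1 CPM, and by *Slc2a3*, *Slc25a25* and *Slc35a1*, with 95.01, 170 and 50.01 CPM. Each of these 4 rested on 10 to 34 UMIs, in cells whose smooth muscle markers summed to more than their pericyte markers. The 19 neuron-like cells of set 3, too few to be evaluated, had more *Slc2a3* (180 CPM) and *Slc35a1* (59.9 CPM) than the pericyte-like cells. In set 2, where these cells held 45869 UMIs in all, no member marked them, and at this depth a level under 65.4 CPM stands for fewer than 3 UMIs.

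**Figure D4:**
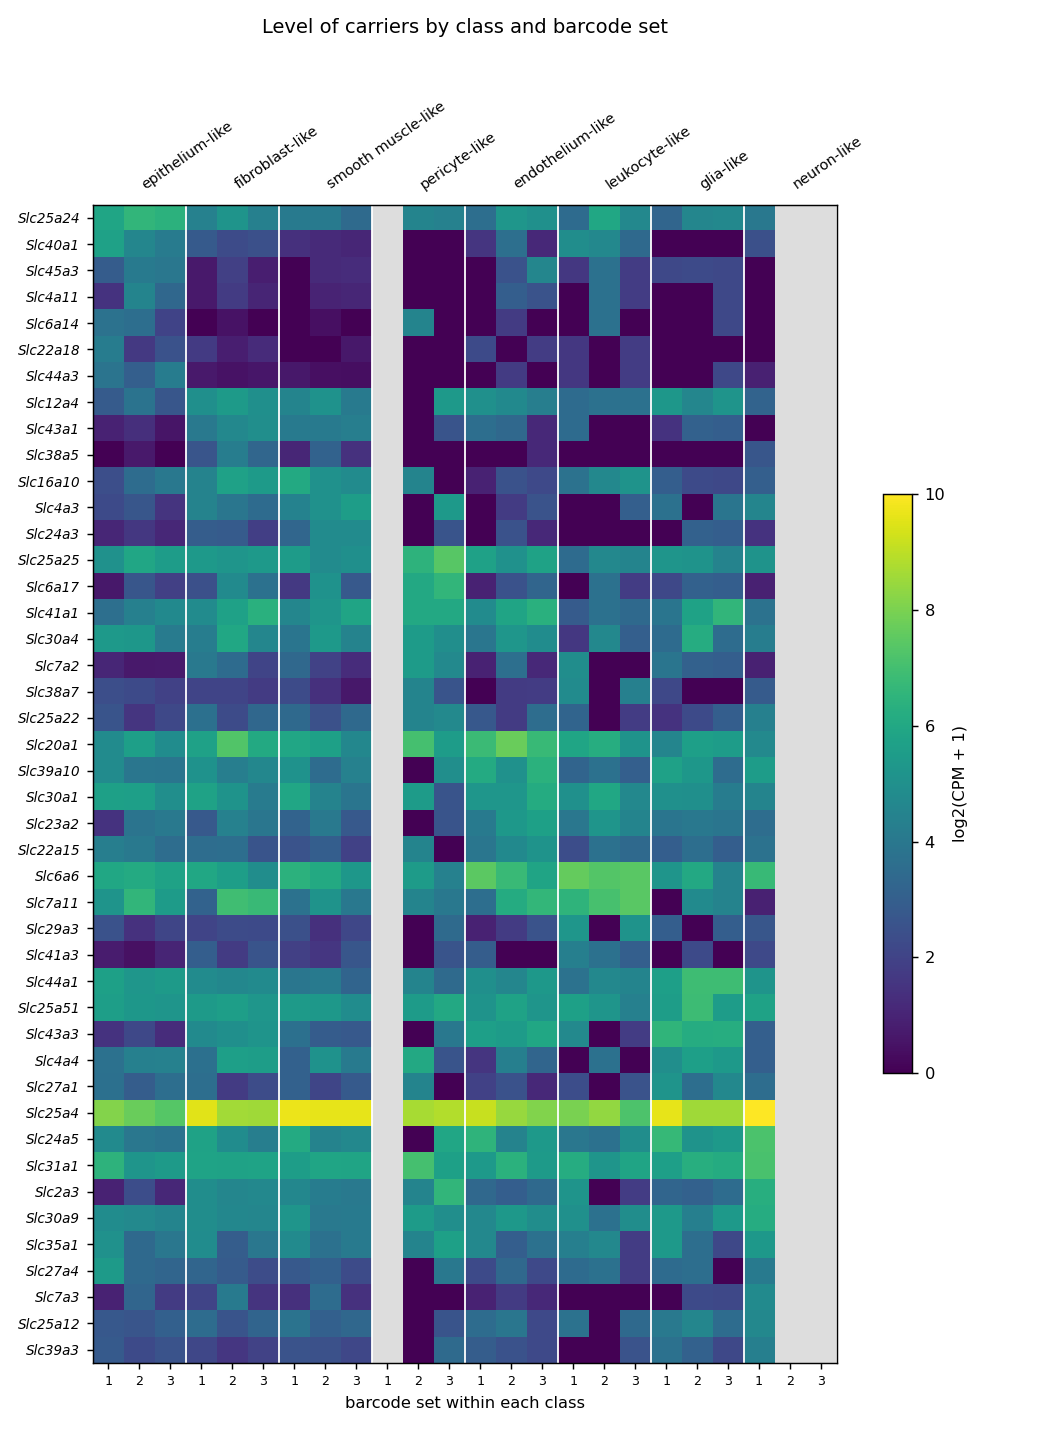
Level, as log2(CPM + 1) on a color scale from 0 to 10 (higher values take the top color), of 44 carriers that marked a class or a compartment, by class and, within each class, by barcode set 1, 2 and 3; grey columns are classes with under 20 cells in that set. Bright cells mark high levels: *Slc25a4* is bright in every class, with set 1 neuron-like cells at the top of the scale, and *Slc6a14*, *Slc44a3*, *Slc22a18*, *Slc4a11* and *Slc45a3* are brighter in epithelium-like cells than in fibroblast-like and smooth muscle-like cells.

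All 9 zinc carriers among the members were detected in each set. *Slc39a1*, an importer of the plasma membrane, was the most abundant and was low in epithelium-like cells, at 69.2, 61.1 and 64.8 CPM, beside 120, 126 and 214 CPM in fibroblast-like and 156, 186 and 251 CPM in glia-like cells. Only in set 3 did *Slc39a1* pass the 2-fold limit as higher in stroma, with a log2 ratio of epithelium over stroma of -1.79 (-1.90 to -1.67). *Slc39a8* went the other way and was higher in epithelium in sets 2 and 3, with 33.3 and 53.3 CPM against 8.37 and 6.65 CPM, while set 1 had 11.1 CPM in epithelium and 6.92 CPM in fibroblast-like cells. *Slc39a10* was highest in endothelium-like cells of sets 1 and 3, at 68.4 and 83.8 CPM. *Slc39a13*, known from connective tissue, was higher in stroma in sets 1 and 3 (29.8 and 11.9 CPM against 4.38 and 5.58 CPM), and *Slc39a3* was sparse, with 6.16, 3.75 and 4.94 CPM in epithelium.

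Of the exporters, *Slc30a1* had 50.4, 48.7 and 29.6 CPM in epithelium and marked endothelium-like cells in set 3 with 70.4 CPM (53.5 to 91.1). *Slc30a4*, which loads zinc into secretory vesicles, was higher in epithelium in set 1 alone, at 40.5 CPM against 17.04 CPM in stroma. In set 2 *Slc30a4* was highest in glia-like and fibroblast-like cells (72.1 and 61.7 CPM). *Slc30a7* of the Golgi had 27.9, 22.5 and 19.5 CPM in epithelium and *Slc30a9* 28.2, 25.1 and 22.04 CPM, with little difference from fibroblast-like cells at 23.6, 19.6 and 16.1 CPM and 28.6, 23.96 and 22.9 CPM. Thus 1 zinc carrier was higher in epithelium in each set, a different one in set 1 (*Slc30a4*) than in sets 2 and 3 (*Slc39a8*), and 1, 0 and 2 were higher in stroma.

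**Figure D5:**
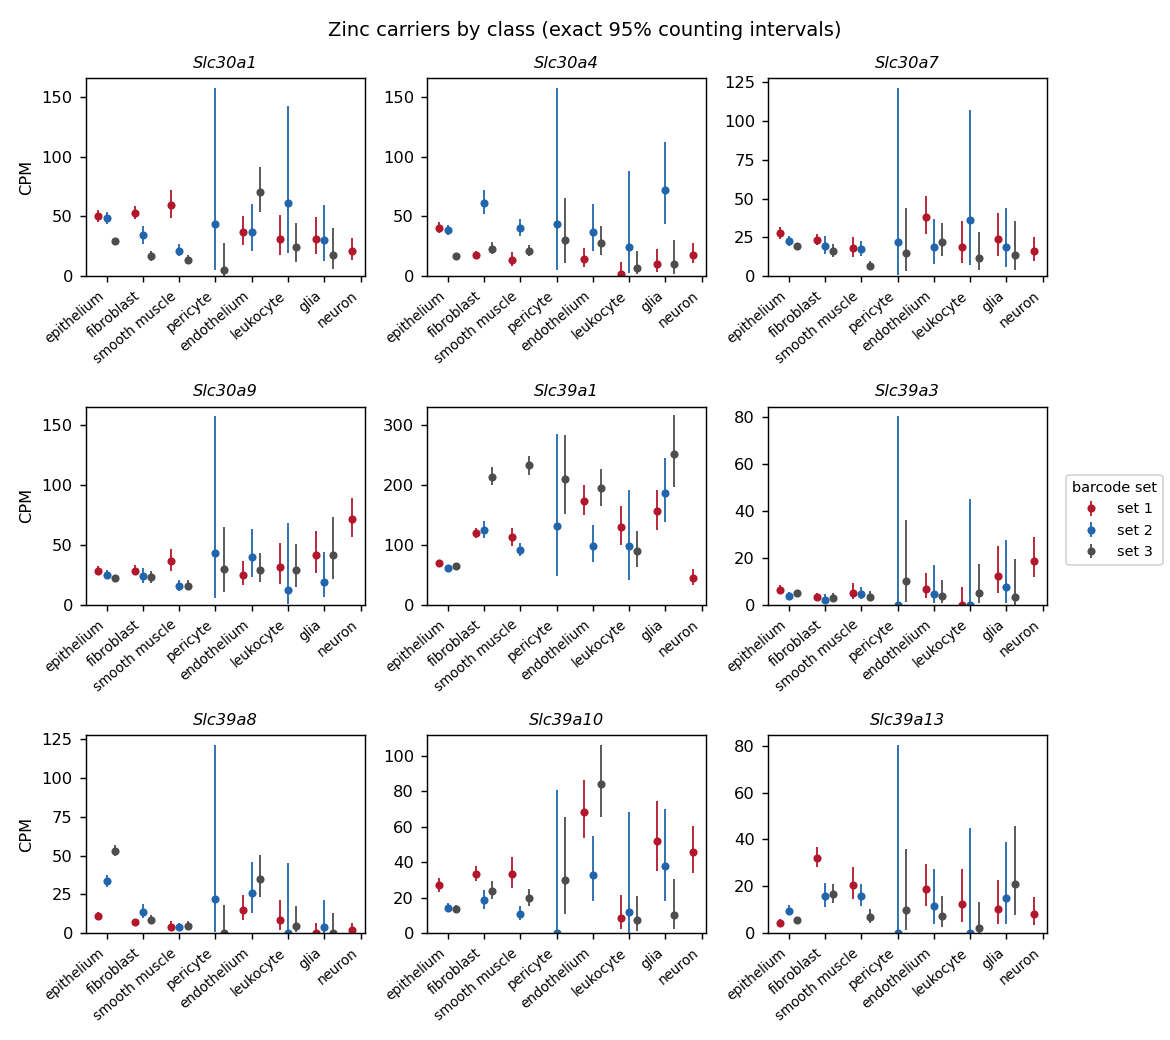
Level (CPM, linear axis from 0) of the 9 zinc carriers by class, with points for barcode sets 1, 2 and 3 and exact 95% counting intervals; classes with under 20 cells in a set have no point. *Slc39a1* is lowest in epithelium among the 3 largest classes (69.2, 61.1 and 64.8 CPM) and *Slc39a8* of sets 2 and 3 is highest there (33.3 and 53.3 CPM).

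The sets were then compared within a class. A carrier marked a set at 2 times the next highest of the 3 sets, for the 6 classes with at least 20 cells in each. As each set is 1 library and set 1 was far deeper, a difference between sets and one between libraries cannot be told apart. In epithelium-like cells 7, 7 and 0 members marked sets 1, 2 and 3 (background 14.4%, 3.51% and 1.94%), in fibroblast-like cells 7, 7 and 0 (16.1%, 2.96% and 2.64%) and in smooth muscle-like cells 7, 5 and 1 (15.9%, 2.68% and 1.54%). Endothelium-like cells had 3, 0 and 0 (5.27%, 2.13% and 2.5%), leukocyte-like cells 1, 1 and 0 (3.88%, 1.99% and 0.94%) and glia-like cells 3, 3 and 0 (4.93%, 2.1% and 1.6%).

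Set 1 was marked most often by *Slc24a5*, in 3 classes, of which smooth muscle-like cells had 68.2, 21.2 and 24.1 CPM in sets 1, 2 and 3. *Slc27a3*, of the fatty acid carriers, marked set 1 in fibroblast-like and smooth muscle-like cells (15.2, 1.57 and 4.74 CPM in the former). The carriers of nucleotide sugars to the Golgi *Slc35a1* and *Slc35a2* each marked set 1 in 2 classes. *Slc35a1* had 32.7, 9.79 and 14.6 CPM in epithelium, but 27.2, 27.9 and 21.5 CPM in its urothelium-like cells, and *Slc35a2* had 32.7, 9.82 and 13.95 CPM in fibroblast-like cells. *Slc10a7* also did so in 2 classes and had 12.3, 2.78 and 2.88 CPM in epithelium.

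Set 2 was marked by *Slc7a3* in all of the 3 largest classes, with 0.958, 8.70 and 2.29 CPM in epithelium, 3.09, 16.1 and 1.84 CPM in fibroblast-like and 1.64, 10.7 and 1.68 CPM in smooth muscle-like cells. *Slc6a17* had 2.18, 33.2 and 5.89 CPM in smooth muscle-like cells and marked set 2 in fibroblast-like cells too, and *Slc30a4* did so in fibroblast-like and glia-like cells. *Slc7a11* marked set 2 in epithelium-like cells (34.8, 94.4 and 44.4 CPM) and smooth muscle-like cells, but in fibroblast-like cells the low set was set 1, with 7.95, 121 and 110 CPM. The epithelium differed in its makeup, since basal-like cells were 43 of 151, 968 of 1434 and 1720 of 2782 epithelium-like cells in sets 1, 2 and 3. Within basal-like cells *Slc7a11* had 73.6, 114 and 55.5 CPM, and within luminal-like cells 26.1, 71.5 and 35.96 CPM, so that set 2 was less than 2 times the next set in either type. *Slc7a1* showed a like order in the 3 largest classes, at 71.2, 257 and 218 CPM in epithelium, 40.5, 238 and 208 CPM in fibroblast-like and 40.4, 141 and 82.4 CPM in smooth muscle-like cells. The single member to mark set 3 was *Slc39a1* in smooth muscle-like cells, with 112, 91.2 and 233 CPM.

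Genes that work beside carriers were read in the same way. All 16 of a list of pumps, channels, metal-binding proteins and enzymes had a row, and 6, 1 and 7 of them marked a class in sets 1, 2 and 3 (17.8%, 6.8% and 13.1% of all rows). *Aqp1*, a water channel, marked endothelium-like cells in every set with 363, 276 and 608 CPM. *Atp1b1*, a subunit of the sodium pump, marked epithelium in sets 1 and 3 (460 and 266 CPM), although the neuron-like cells of sets 2 and 3, too few to be evaluated, had 1391 and 1450 CPM. *Ftl1*, which stores iron, marked leukocyte-like cells in sets 1 and 3 (11841 and 12638 CPM). The zinc-binding metallothionein *Mt2* marked fibroblast-like cells in sets 1 and 3, with 244 and 2437 CPM.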

How the data were processed

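Single-cell libraries of dissociated mouse UGS and prostate were made with a 10x Genomics kit, which the labels give as version 3 and the study's methods as version 2. The submitters' processing notes name Cell Ranger 3.1.0 and mm10. The authors deposited 1 table of natural log values, that is ln(1 + 10000 × UMIs / total UMIs of the cell), for 14573 cells. The table is held in part here, with 9781 gene rows used, which hold 52.7%, 50.4% and 49.4% of the UMIs of sets 1, 2 and 3. Levels (CPM) are over all UMIs of a cell, as its values give them. Whole UMIs were recovered from all 11121287 values above 0 (tolerance 0.05, largest distance 9.4e-07).

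In set 3, 97 cells with under 200 genes were removed. Cells were clustered with Seurat 5.3.0 in R 4.3.3 (2000 features without any carrier, integration over 20 dimensions, resolution 0.5), and the rule that names clusters from marker lists was set after clustering. The other rows were not left out of the features, so backgrounds over all rows include genes that shaped the clusters. UMIs were summed per class and set. A carrier marked a class at 2 times the next highest class, with an exact 95% interval of the ratio above 1 and at least 10 UMIs, and sums under 3 UMIs were set to 3. Intervals are exact Poisson intervals for levels and exact binomial ones for ratios. Scrublet in scanpy 1.11.5 called 2, 5 and 1 cells of sets 1, 2 and 3, too few to be used, and the study's methods describe a removal of multiplets. The scripts were tested on simulated data.

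The members and lists were chosen with earlier results of these data known. Named were the leading carriers of each class, epithelial type and set, the zinc and sugar carriers, the 10 most abundant members, those at the detection limit and a list of partner genes. Carriers named for epithelium against stroma, and others beyond these, were chosen after their values were seen. Some members and genes that enter the counts are not reported here by name.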

Additional observations from a re-analysis of the deposited data

Results flagged for a closer look

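Of the 55 carrier rows detected in too few cells to be members (1 to 145 cells), 17 marked a class by the same rule in some set, against 21.7% of all 3283 rows detected in so few cells. In neuron-like cells of set 1 these were 8 carriers, with *Slc18a1* (the vesicular monoamine carrier of chromaffin cells) at 94.2 CPM, *Slc10a4* at 71.8 CPM, *Slc7a14* at 57.4 CPM and *Slc29a4* at 40.4 CPM. The others there were *Slc6a15* at 18.8 CPM, *Slc6a2* (the noradrenaline carrier) at 17.9 CPM, *Slc45a1* at 9.87 CPM and *Slc38a11* at 8.97 CPM. Leukocyte-like cells of set 1 were marked by *Slc11a1*, a metal carrier of macrophage phagosomes, at 104 CPM and by *Slc2a6* at 31.3 CPM. In fibroblast-like cells of set 1 *Slc26a7* had 9.27 CPM and *Slc7a10* 4.27 CPM. Epithelium-like cells of set 1 were marked by *Slc5a9* at 26 CPM, *Slc9a2* at 5.2 CPM, *Slc9a4* at 3.69 CPM and *Slc5a1* at 2.33 CPM, and those of set 3 by *Slc9a7* at 2.70 CPM. They are listed because these rows lie outside the members, and 16 of the 17 did so in set 1 (18.6% of all such rows).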

How the results depend on the processing

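No paired analysis was possible because there was 1 library behind each barcode set. Asking for 3 times instead of 2, the members marking a class were 6, 1 and 7 in sets 1, 2 and 3, 14 in any set and 1 in every set evaluated. Against all other kept cells these counts were 50, 30, 40, 65 and 19. With detection in 5% of cells (36 members) they were 5, 2, 7, 12 and 0. Among the 3 largest classes alone, chosen after the data were seen, sets 2 and 3 had 19 and 30 and every set 7. Thinned to 900 UMIs, which left out 7, 342 and 693 cells, set 1 had 1, any set 15 and every set 0. With cells of at least 500 genes set 3 had 5 and every set 4, and without the 6% of cells with the highest doublet scores every set had 5. Of the carriers higher in every set, 0 epithelial and 1 stromal were left after thinning, and 4 epithelial with at least 500 genes. Pairs of a class and a member that marked sets 1, 2 and 3 went from 28, 23 and 1 to 11, 10 and 0 at 3 times, to 5 for set 1 after thinning, and to 0 for set 3 with at least 500 genes. Of 515 ratios of named members, 472 kept direction and side of the limit, 42 fell short of it and 1 reversed, *Slc41a3* of epithelium over stroma in set 2 after thinning (log2 0.67). Thinning and the 5% limit use fewer UMIs or members; for the other settings the cause was not tested. Without integration, set 1 held too few stromal cells for the comparison with epithelium. Leaving out mitotic clusters gave no value of its own, since that cluster stayed unnamed. Depth limits small classes, where 1 UMI stands for up to 21.8 CPM.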
